A study of Mus musculus with 8 samples.

Results

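The collagen genes of AML12 cells were compared between cells without VWA8 and wild-type cells. AML12 is a line of hepatocytes from mice that carried a transgene for the growth factor TGF-alpha. VWA8 is an ATPase-like protein of mitochondria. Members were all genes whose symbol begins with Col, a number, the letter a and a further number, each represented by the brightest of its probe sets that carry a single gene symbol. The rule found 44 collagen genes among 22180 measured genes, of which 11 encode fibrillar collagens, 8 basement membrane collagens (types IV, XV and XVIII) and 25 other collagens. The groups were 4 cultures of VWA8-null AML12 cells, in which the gene had been deleted with CRISPR/Cas9, and 4 cultures of wild-type AML12 cells. Both were grown with fetal serum, insulin, transferrin, selenium and dexamethasone, a synthetic glucocorticoid, and were differentiated before RNA isolation. Each culture gave 1 Affymetrix array. The number of knockout clones is unknown here, and features of a clone and the loss of VWA8 cannot be told apart.

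Collagens are matrix proteins in which 3 chains, each a run of glycine-led repeats, wind into a rope-like helix. Fibrillar collagens such as types I, III and V form the cables of connective tissue, type IV forms the sheet of the basement membrane, and the other types decorate fibrils, make fine filaments, anchor epithelia or span the cell membrane. In liver the fibrillar types come mainly from stellate cells and fibroblasts and pile up in fibrosis, while type IV lines vessels and ducts, and type XVIII, the source of endostatin, is made by hepatocytes.

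Values are log2 signals, on which a difference of 1 is a 2-fold change. Signals of different probe sets are not on a common scale of abundance, so each gene was compared only with itself. The median of a gene's mean signal over all genes was 4.57. A signal at or below this value is called dim here. No separate measure of background was used, and a dim signal may include little or no specific expression.

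The targeted transcript was low in every knockout array. Vwa8 read from 5.07 to 5.33 in VWA8-null cells and from 8.91 to 9.01 in wild-type cells, with an exact two-sided permutation p of 0.0286, which is the lowest possible with 4 against 4 arrays. Correlations between arrays ran from 0.986 to 0.989 within the knockout group, from 0.985 to 0.989 within the wild type and from 0.978 to 0.984 across genotypes. Hepatocyte markers were bright, with 10 of 10 measured above the median gene. Of the markers of other liver cells, 2 of 10 for stellate cells and fibroblasts (Vim and Acta2), 0 of 7 for endothelium and 1 of 6 for macrophages were above it. The cholangiocyte markers were above it in 3 of 4 cases, Krt19, Sox9 and Krt7. Of these 4 measured markers 1 was lower in the knockout and 0 higher, beside 10.4% each way of all genes. Krt7 was the lower one, at -0.52 (limma adjusted p = 0.0022), and passed under all 15 alternatives. Krt19 at -0.18 (0.146), the dim Epcam at -0.04 (0.816) and Sox9 at 0.11 (0.210) did not pass. The part of Krt7 in the collagen results was not tested.

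The knockout cells had lower signals of both main type IV chains, of types XV and XII and, by smaller margins, of Col4a6, Col6a1 and Col7a1, and no collagen passed the test upwards. Of 44 collagens, 7 were lower and 0 higher at an adjusted p under 0.05 (limma, adjusted over all 22180 genes), against 10.4% lower and 10.4% higher among all genes and 20.9% in either direction. At an unadjusted p under 0.05, 8 were lower and 0 higher, beside 3505 lower and 3397 higher of all 22180 genes. The 7 split as 4 of 8 basement membrane collagens, 0 of 11 fibrillar collagens and 3 of 25 others. Median log2 fold changes, knockout minus wild type, were -0.23 for the basement membrane class, -0.003 for the fibrillar class and -0.08 for the others, beside -0.003 over all genes. Over all genes 2312 were lower with all 8 arrays, and 1885 to 2017 when 1 array at a time was left out. The number of lowered collagens fell to 4 when wild-type replicate 2 was left out. The 4 that passed there were Col4a1, Col4a2, Col12a1 and Col15a1, which passed under all 15 alternatives tried.

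**Figure D1:**
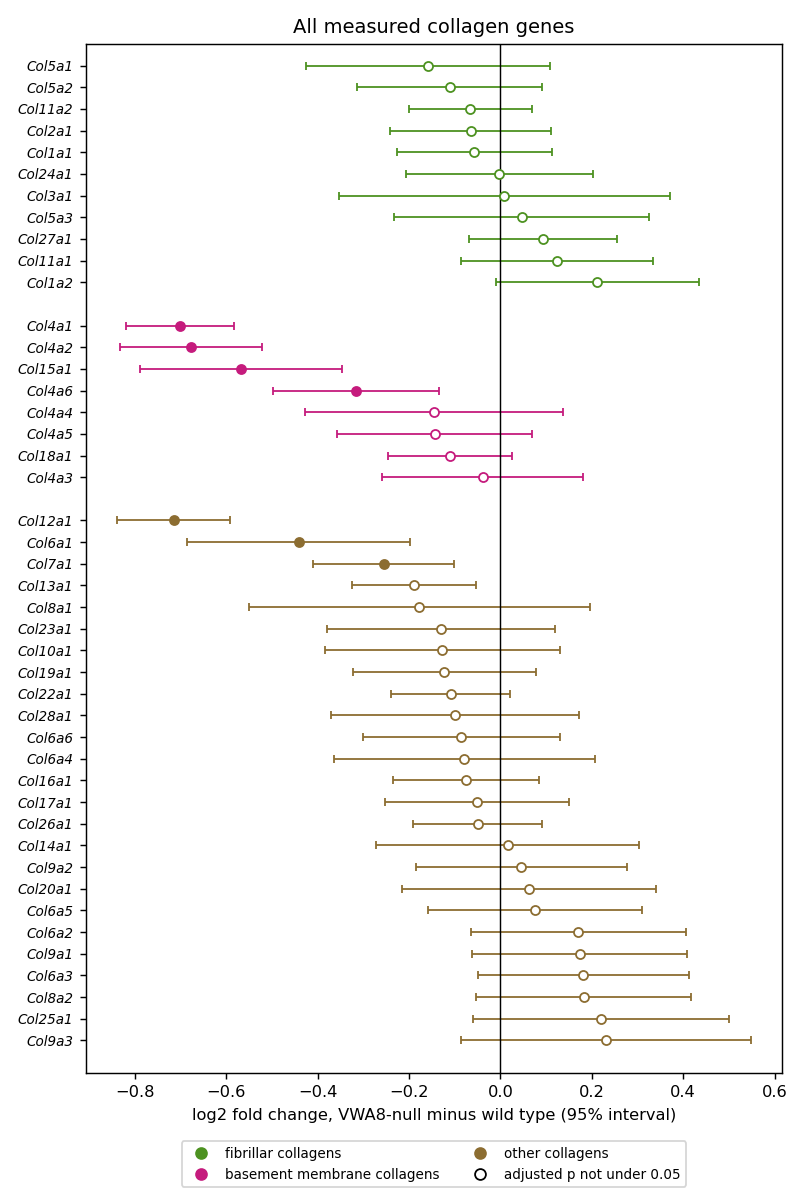
Log2 fold change, VWA8-null minus wild type, of the 44 collagen genes with 95% intervals from limma, grouped into fibrillar, basement membrane and other collagens. Filled points have an adjusted p under 0.05; all 7 lie left of 0, from -0.71 for Col12a1 to -0.26 for Col7a1, and none is fibrillar.

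How many genes could pass depended on their signal. Of 11090 genes above the median gene 37% changed, 18.6% higher and 18.3% lower in the knockout. Of the 11090 at or below it 4.76% changed, 2.25% higher and 2.52% lower. Among collagens above it the count was 6 of 16, namely 3 of 5 in the basement membrane class, 0 of 2 in the fibrillar class and 3 of 9 among the others. Among the 28 dim collagens 1 was lower, Col4a6. Of the 11 fibrillar genes 9 were dim, in the range where few genes of any kind passed.

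**Figure D2:**
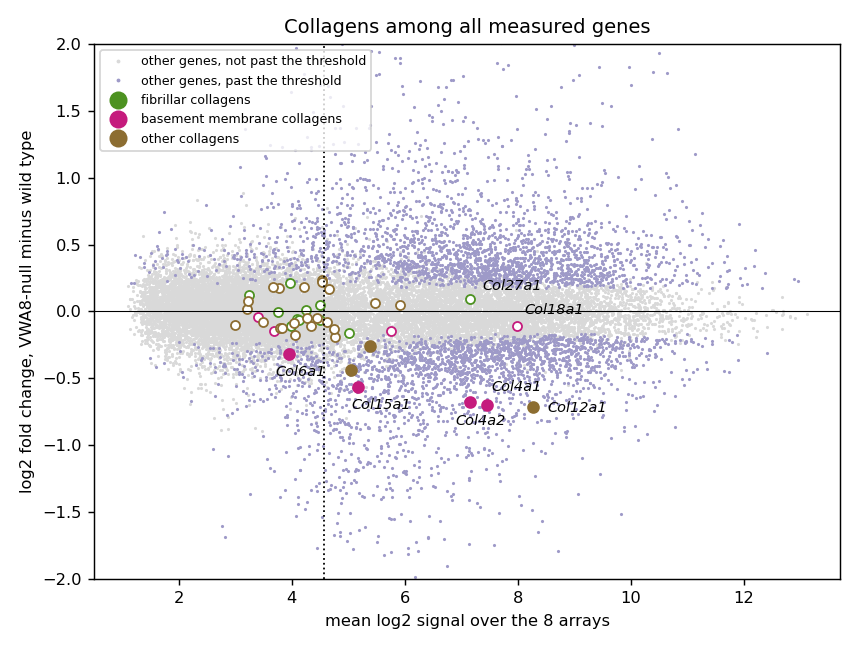
Log2 fold change (vertical, VWA8-null minus wild type) against mean log2 signal over the 8 arrays (horizontal) for all genes, with collagens coloured by class, filled where the adjusted p is under 0.05. The dotted line marks the median gene at 4.57, and genes beyond 2 in either direction (49 of them) are not shown; the filled collagens lie right of the line except Col4a6.

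Among the basement membrane genes, Col4a1 and Col4a2 encode the chains of the ordinary type IV network, found in nearly every basement membrane. They lie head to head on chromosome 8 and are transcribed away from each other. Their promoter windows, from 250 bases before to 50 bases after the start used by RefSeq (build GRCm38.p6), are shown because both genes moved together. Col4a1 has the window chr8:11312777-11313076 on the minus strand and Col4a2 chr8:11312555-11312854 on the plus strand. Capitals mark the 78 bases that the windows share, read from opposite strands.
Col4a1: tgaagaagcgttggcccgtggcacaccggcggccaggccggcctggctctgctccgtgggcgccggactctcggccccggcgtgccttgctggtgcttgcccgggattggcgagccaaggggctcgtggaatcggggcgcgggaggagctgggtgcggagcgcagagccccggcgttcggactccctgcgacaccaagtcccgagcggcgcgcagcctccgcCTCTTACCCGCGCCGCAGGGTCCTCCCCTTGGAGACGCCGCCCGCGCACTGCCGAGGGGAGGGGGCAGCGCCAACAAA
Col4a2: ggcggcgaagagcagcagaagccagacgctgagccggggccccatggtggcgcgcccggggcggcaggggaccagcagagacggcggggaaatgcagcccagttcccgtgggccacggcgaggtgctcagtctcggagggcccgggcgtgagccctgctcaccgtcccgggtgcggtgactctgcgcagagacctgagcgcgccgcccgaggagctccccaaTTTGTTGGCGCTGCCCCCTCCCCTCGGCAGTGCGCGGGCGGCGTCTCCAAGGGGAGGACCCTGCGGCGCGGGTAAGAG

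The starts used for these windows are 21 bases apart, at 11312826 for Col4a1 and 11312805 for Col4a2. In the gene table of the same build Col4a1 reaches further, to 11312889, and Col4a2 begins at 11312805. Each start lies inside the other gene, so the annotated genes overlap there and leave no gap. A GC box (GGGCGG on either strand), the motif bound by SP1-type factors, occurred 1 time in the Col4a1 window and 3 times in the Col4a2 window, and a CCAAT box (CCAAT on either strand) 1 time in each. The GC box of the Col4a1 window lies in the shared bases, and the same site was counted again in the Col4a2 window. Of 32851 RefSeq promoter windows of 300 bases, 35.7% held a GC box and 37.4% a CCAAT box. Windows were given for 35 of the 44 collagens, and 4 of the 6 windows of lowered collagens had a GC box and 3 had a CCAAT box, where 23 and 13 of all 38 collagen windows did. TATAAA, the TATA box, was in 0 of those 6 windows, in 5 of the 38 collagen windows and in 13.6% of all windows. GGAATG, the TEAD site, was in 1 of 6, in 5 of 38 and in 14.7%.

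Col4a1 (probe set 17507377) read 7.13, 7.13, 7.05 and 7.13 in VWA8-null cells, against 7.84, 7.79, 7.77 and 7.84 in wild-type cells. All knockout arrays lay below all wild-type arrays, by a gap many times the spread within either group. The means were 7.11 ± 0.0384 in the knockout and 7.81 ± 0.0345 in the wild type (SD, n = 4 each), a log2 fold change of -0.70 ± 0.052 (SE, limma adjusted p = 2.74e-05), or 1.63-fold lower.

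Col4a2 (17498962) read 6.91, 6.81, 6.89 and 6.68 in the knockout cultures, against 7.56, 7.44, 7.53 and 7.46 in the wild-type cultures. Again the groups did not overlap. Its log2 fold change was -0.68 ± 0.068 (adjusted p = 0.000155). The changes of both chains could not be distinguished: their difference was -0.02 with a 95% interval from -0.20 to 0.15, and an exact permutation test gave p = 0.743. This was 1 of 4 pairs of chains tested, all chosen after their values were seen. Measured genes around the pair were also lower, with a median of -0.19 over the 30 nearest non-collagen genes above the median gene on each side. After subtracting it Col4a1 stood at -0.51 and Col4a2 at -0.49, both past the threshold.

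The remaining type IV chains have narrower uses, Col4a3 to Col4a5 in kidney, lung and eye and Col4a6 with Col4a5 in skin and smooth muscle. Col4a6 was dim, at 3.69, 3.83, 3.70 and 3.91 in VWA8-null cells and at 4.08, 4.12, 4.24 and 3.97 in wild-type cells, and the groups came close without overlapping. It changed by -0.32 ± 0.080 (adjusted p = 0.0212), and lost its call on leaving out knockout replicate 1 or 3 or wild-type replicate 2 or 3 (adjusted p from 0.0528 to 0.0619), with an intensity trend and robust variances (0.0531) and after subtracting its neighbours (0.0575). Col4a5, its neighbour on the X chromosome, was brighter, with 5.70, 5.70, 5.46 and 5.86 in the knockout and 5.89, 5.72, 5.76 and 5.93 in the wild type. These overlapped, and the change of -0.14 (95% interval -0.36 to 0.07) missed the test at an adjusted p of 0.360. Col4a3 and Col4a4 were dim in both groups and missed it as well, at -0.04 and -0.15.

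Types XV and XVIII are close relatives that sit in the basement membrane zone and carry sugar chains. Col15a1 read 4.98, 5.08, 4.70 and 4.80 in VWA8-null cells, against 5.41, 5.61, 5.46 and 5.35 in wild-type cells. The groups did not overlap, and it was 1.48-fold lower at -0.57 ± 0.097 (adjusted p = 0.00305). Col18a1 read 7.83, 8.0007, 7.98 and 7.94 in the knockout and 8.10, 8.0036, 8.07 and 8.02 in the wild type. The groups were separated only by the third decimal, and the change of -0.11 (95% interval -0.25 to 0.02) had an adjusted p of 0.257. Between the 2 genes the changes differed by -0.46 (95% interval -0.75 to -0.16) with an exact permutation p of 0.0286, or 0.114 adjusted over the 4 pairs.

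**Figure D3:**
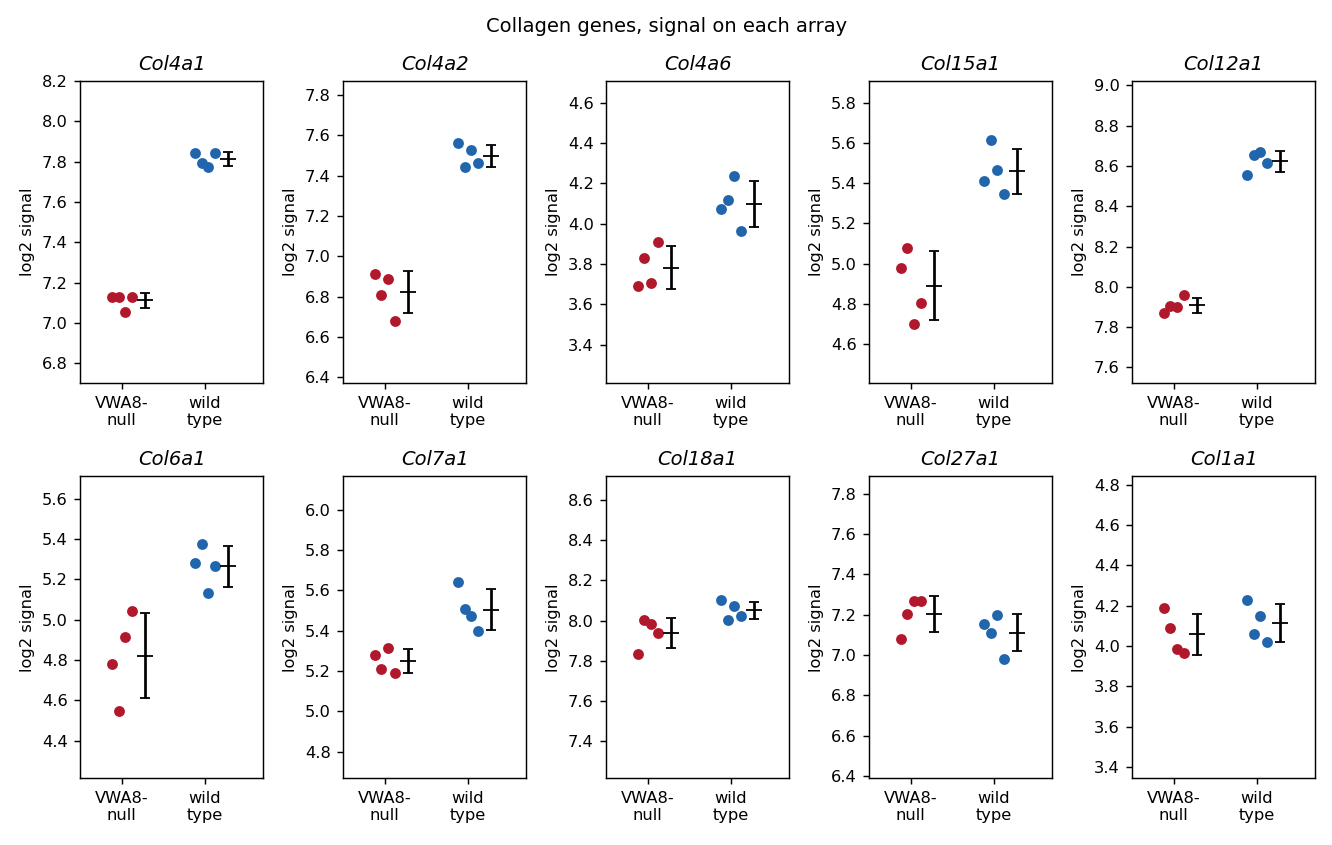
Log2 signal on each array for the 7 lowered collagens and for Col18a1, Col27a1 and Col1a1; points are arrays, and bars give mean and SD of 4. Each vertical axis spans its own range of at least 1.5; Col4a1, Col4a2 and Col12a1 show the widest gaps between VWA8-null and wild-type arrays against their spread.

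The fibrillar class showed no change that passed. Its 11 members had log2 fold changes from -0.16 for Col5a1 to 0.21 for Col1a2, with 6 below 0, and the smallest adjusted p was 0.181. In limma 0 of 11 had an unadjusted p under 0.05, where 3505 of all 22180 genes were lower and 3397 higher. Col1a1 and Col1a2 encode the chains of type I, the collagen of scars and bone, and Col3a1 that of type III. Col1a1 read 4.19, 4.09, 3.99 and 3.97 in VWA8-null cells and 4.23, 4.06, 4.15 and 4.02 in wild-type cells, dim and overlapping, and its 95% interval for the change ran from -0.23 to 0.11.

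Col1a2 read 4.06, 4.01, 4.21 and 3.98 in the knockout and 3.83, 3.79, 4.10 and 3.68 in the wild type, with wild-type replicate 3 inside the knockout range. At 0.21 ± 0.098 it missed the test (adjusted p = 0.181), and without that array it stood at 0.30 and passed (adjusted p = 0.0366). Its second probe set, dimmer still, stood at -0.13 and did not pass. For Col3a1 the values were 3.97, 4.16, 4.22 and 4.70 in VWA8-null cells and 4.46, 4.01, 4.18 and 4.35 in wild-type cells, a change of 0.01 with a 95% interval from -0.35 to 0.37, too wide to exclude a modest change either way.

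The fibrillar genes above the median gene were Col27a1, a cartilage-type chain, and Col5a1, which helps to start type I fibrils. Col27a1 was clearly above it, at 7.08, 7.20, 7.27 and 7.27 in the knockout and 7.15, 7.11, 7.20 and 6.98 in the wild type. The groups overlapped, and the interval of its change, -0.07 to 0.25, included 0. Col5a1 read 5.27, 4.82, 4.90 and 4.75 in VWA8-null cells and 5.15, 5.16, 5.15 and 4.91 in wild-type cells and missed the test at -0.16 (adjusted p = 0.425). Col2a1, the cartilage collagen, stood at -0.07 (adjusted p = 0.643).

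Among the other collagens the fibril-associated type XII changed most. Col12a1 encodes a long chain that binds along type I fibrils under mechanical load. It read 7.87, 7.91, 7.90 and 7.96 in VWA8-null cells, against 8.56, 8.65, 8.67 and 8.61 in wild-type cells, with no overlap. At -0.71 ± 0.054 (adjusted p = 3.14e-05) it was 1.64-fold lower, with a neighbour median of 0.003. The remaining 8 fibril-associated genes did not pass. Of them Col9a2 stood at 0.05 and Col20a1 at 0.06, both above the median gene.

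Type VI, a beaded filament near cell surfaces, had 1 of 6 genes lower. Col6a1 read 4.78, 4.55, 4.92 and 5.04 in the knockout, against 5.28, 5.38, 5.13 and 5.27 in the wild type, separated but with wide spread. It changed by -0.44 ± 0.108 (adjusted p = 0.0181). The call was lost without wild-type replicate 2 (adjusted p = 0.0522) and after subtracting a neighbour median of -0.17 on chromosome 10, which left it at -0.27 (adjusted p = 0.115). Col6a2, whose chain joins the same filament and whose gene lies next to it, read 4.64, 4.74, 5.04 and 4.57 in VWA8-null cells and 4.49, 4.60, 4.68 and 4.53 in wild-type cells, at 0.17 (adjusted p = 0.318). The difference between their changes was -0.61 (95% interval -1.03 to -0.20), with an exact permutation p of 0.0571 and 0.114 adjusted over the 4 pairs. A dim second probe set of Col6a1 stood at -0.18 and did not pass.

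Col7a1, which builds the fibrils that anchor epithelium to its underlying tissue, read 5.28, 5.21, 5.31 and 5.19 in the knockout, against 5.64, 5.51, 5.47 and 5.40 in the wild type. It was 1.19-fold lower, at -0.26 ± 0.068 (adjusted p = 0.0272), and lost its call without knockout replicate 1, 2 or 4 or wild-type replicate 1 or 2 (adjusted p from 0.0542 to 0.0726). Of the 4 transmembrane collagens none passed. Col13a1, the nearest, read 4.75, 4.60, 4.69 and 4.62 in VWA8-null cells and 4.78, 4.88, 4.90 and 4.86 in wild-type cells, at -0.19 (adjusted p = 0.0547, or 0.0147 without the dimmest 50% of probe sets); it was named after its values were seen. Knockout arrays lay below all wild-type arrays for 9 of 44 collagens, where 13.2% of all genes did so, and above them for 0. The groups were apart in either direction for 26.1% of all genes.

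Collagen chains are hydroxylated, folded and exported before they leave the cell, and this machinery went both ways. Of 23 measured modifying enzymes, chaperones and export factors, 10 were higher and 4 lower, against 10.4% each way over all genes, with a median of 0.24. Of the 19 above the median gene 10 were higher and 3 lower, where 18.6% of genes were higher and 18.3% lower, so the share lower was near that of all genes of like signal. The lower ones were Plod2, Serpinh1, P4ha3 and P4ha2. Plod2, which hydroxylates lysines at the chain ends for stable cross-links, read 5.06, 5.07, 5.06 and 5.12 in VWA8-null cells, against 6.33, 6.37, 6.29 and 6.61 in wild-type cells, and was lower by far more than its spread, at -1.32 ± 0.077 (adjusted p = 6.82e-06).

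Serpinh1 encodes HSP47, a chaperone dedicated to collagen. It read 7.07, 7.13, 7.26 and 7.07 in the knockout, against 7.95, 7.71, 7.81 and 7.69 in the wild type, with no overlap and a change of -0.66 ± 0.078 (adjusted p = 0.000387). The prolyl hydroxylase subunits P4ha3 and P4ha2 stood at -0.47 (dim; adjusted p = 0.0184) and -0.27 (adjusted p = 0.0350). P4ha3 lost its call without knockout replicate 2 or 3 or after subtracting its neighbours, and P4ha2 without knockout replicate 1, 2 or 4 or wild-type replicate 1, 2 or 4 (adjusted p up to 0.093). P4ha1, the main such subunit in many cells, stood at -0.03 with a 95% interval from -0.24 to 0.17.

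The higher ones were P4hb, Ppib, Plod1, Fkbp14, Fkbp7, Mia3, Mia2, Sec23a, Sec24d and Creb3l1. Sec24d, a coat protein of the vesicles that carry cargo out of the endoplasmic reticulum, read 7.68, 7.68, 7.69 and 7.70 in VWA8-null cells, against 5.94, 5.78, 6.08 and 6.02 in wild-type cells. It rose 3.32-fold, at 1.73 ± 0.073 (adjusted p = 1.50e-06), with knockout arrays nearly identical to each other. Mia2, which helps to load bulky cargo such as collagen and lipoproteins, rose by 0.48 ± 0.057 (adjusted p = 0.000393).

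**Figure D4:**
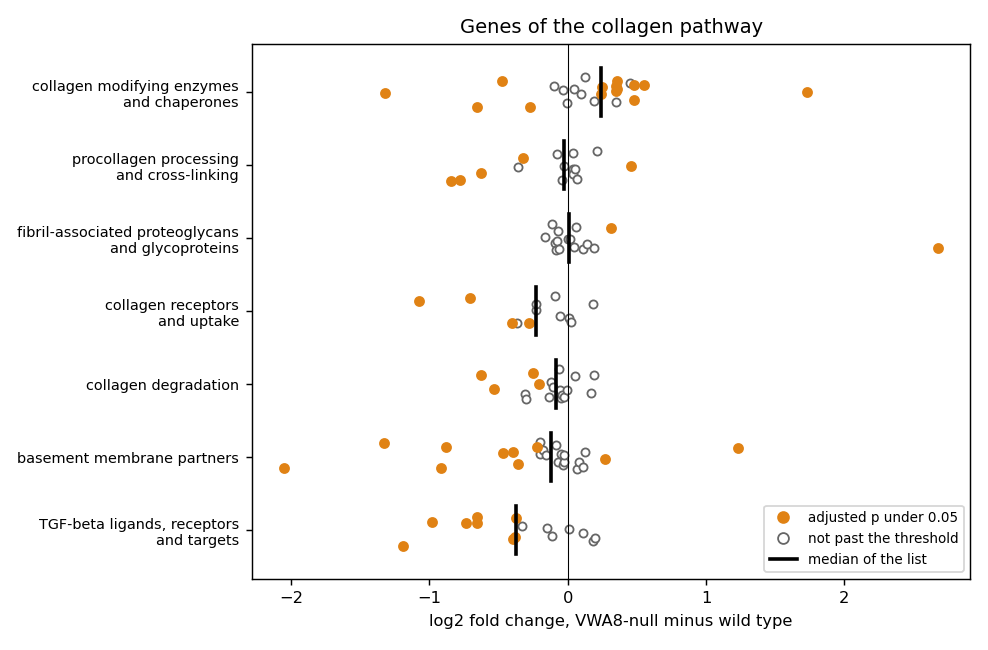
Log2 fold change, VWA8-null minus wild type, of each measured gene in 7 lists around collagen, with the list median as a bar and genes past an adjusted p of 0.05 filled. Filled points for modifying enzymes, chaperones and export genes lie on both sides of 0, with the export genes Mia3, Mia2, Sec23a and Sec24d all to the right. The filled points for receptors, degradation and TGF-beta genes all lie left of 0.

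Outside the cell, procollagen ends are clipped off and the fibrils are cross-linked. Of 15 genes for these steps 4 were lower and 1 higher (median -0.02), beside 10.4% each way of all genes. The 4 were among 7 genes above the median gene, where 18.3% of genes were lower. Pcolce and Pcolce2 encode enhancers of the protease that removes the C-terminal end. Pcolce read 5.37, 5.41, 5.42 and 5.42 in the knockout, against 6.19, 6.27, 6.15 and 6.12 in the wild type, a change of -0.78 ± 0.055 (adjusted p = 2.21e-05), and Pcolce2 changed by -0.63 ± 0.098 (adjusted p = 0.00182). Bmp1, that protease, changed by -0.32 ± 0.079 (adjusted p = 0.0184), a call lost after subtracting its neighbours (at -0.18) and without knockout replicate 2 or wild-type replicate 1 or 2.

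Loxl4, a lysyl oxidase of the cross-linking family, read 5.78, 6.04, 5.97 and 6.06 in VWA8-null cells, against 6.76, 6.81, 6.76 and 6.89 in wild-type cells, at -0.84 ± 0.075 (adjusted p = 7.73e-05). Lox itself was dim in both groups, at -0.04 with a 95% interval from -0.27 to 0.19. The gene that rose, Mep1a, a metalloprotease, was dim too, at 0.46 (adjusted p = 0.0433). It lost its call without knockout replicate 2, 3 or 4 or wild-type replicate 1, 2 or 3. Without the dimmest 50% of probe sets it was left out and so not tested.

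Of 16 proteoglycans and glycoproteins that bind fibrils 2 were higher and 0 lower, beside 10.4% each way of all genes, and 11 were dim. Both risen genes were among the 5 above the median gene, where 18.6% of genes were higher. The counts were the same at an unadjusted p under 0.05, where 3397 of all 22180 genes were higher and 3505 lower. Postn encodes periostin, which links collagen to other matrix proteins. It read 9.99, 9.96, 9.90 and 10.08 in the knockout, against 7.21, 7.44, 7.23 and 7.35 in the wild type, a 6.39-fold rise at 2.67 ± 0.072 (adjusted p = 2.59e-07). Fibronectin, Fn1, rose by 0.31 ± 0.064 (adjusted p = 0.00803), but stood at 0.03 once the change of its neighbours on chromosome 1 was subtracted (adjusted p = 0.781).

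Collagen receptors were lower where they passed, with 4 of 12 lower and 0 higher (median -0.23), beside 10.4% lower of all genes. Of the 7 above the median gene 3 were lower, where 18.3% of genes were. At an unadjusted p under 0.05, 6 receptors were lower and 0 higher, beside 3505 lower and 3397 higher of all 22180 genes. Ddr2, a receptor kinase for fibrillar collagens, read 3.54, 3.55, 3.69 and 3.36 in VWA8-null cells, against 4.09, 4.42, 4.30 and 4.15 in wild-type cells, dim but separated, at -0.70 ± 0.097 (adjusted p = 0.000927). Its relative Ddr1, the epithelial form that also binds type IV, changed by -0.40 ± 0.069 (adjusted p = 0.00301) and by -0.24 with the mean of its probe sets, when it did not pass (adjusted p = 0.0701). Cd44 changed by -1.07 ± 0.072. Itgb1, the shared beta chain of the collagen integrins, changed by -0.28 ± 0.067 (adjusted p = 0.0175), a call lost without knockout replicate 2 and after subtracting its neighbours.

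Of 18 genes of collagen degradation 4 were lower and 0 higher (median -0.08), beside 10.4% lower of all genes. All 4 were among the 6 above the median gene, where 18.3% of genes were lower, and 12 were dim. At an unadjusted p under 0.05, 6 were lower and 1 higher, beside 3505 lower and 3397 higher of all 22180 genes. Both tissue inhibitors of metalloproteases that were above the median gene changed, Timp1 by -0.62 ± 0.086 (adjusted p = 0.000938) and Timp2 by -0.53 ± 0.070 (adjusted p = 0.000693). Ctsl, a lysosomal protease, changed by -0.25 ± 0.055 (adjusted p = 0.0115). Mmp14, a membrane-bound collagenase, changed by -0.20 ± 0.054 (adjusted p = 0.0274), and stood at -0.07 after subtracting its neighbours. It also missed the threshold with median centring (adjusted p = 0.0558) and without knockout replicate 1 or 2 or wild-type replicate 1, 2 or 4.

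The partners of type IV in the basement membrane went both ways. Of 24 measured laminins, linkers, proteoglycans and receptors 8 were lower and 2 higher (median -0.12), beside 10.4% each way of all genes. All 10 were among the 14 above the median gene, where 18.3% of genes were lower and 18.6% higher. Nid1 encodes nidogen, which ties laminin to type IV collagen. It read 5.02, 4.91, 5.27 and 5.36 in VWA8-null cells, against 7.20, 7.21, 7.02 and 7.31 in wild-type cells, and was 4.13-fold lower at -2.05 ± 0.111 (adjusted p = 4.79e-06). Hspg2, which encodes perlecan, the large heparan sulfate proteoglycan of the membrane, read 6.36, 6.45, 6.55 and 6.42 in the knockout, against 7.44, 7.40, 7.30 and 7.31 in the wild type, at -0.91 ± 0.066 (adjusted p = 2.24e-05).

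Fras1, a membrane-anchored protein under epithelia, changed by -1.32 ± 0.079 (adjusted p = 7.68e-06). The 2 that rose were Smoc1, a calcium-binding matrix protein related to SPARC, by 1.23 ± 0.10 (adjusted p = 4.49e-05), and the laminin chain gene Lamc1, by 0.27 ± 0.060 (adjusted p = 0.0111).

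**Figure D5:**
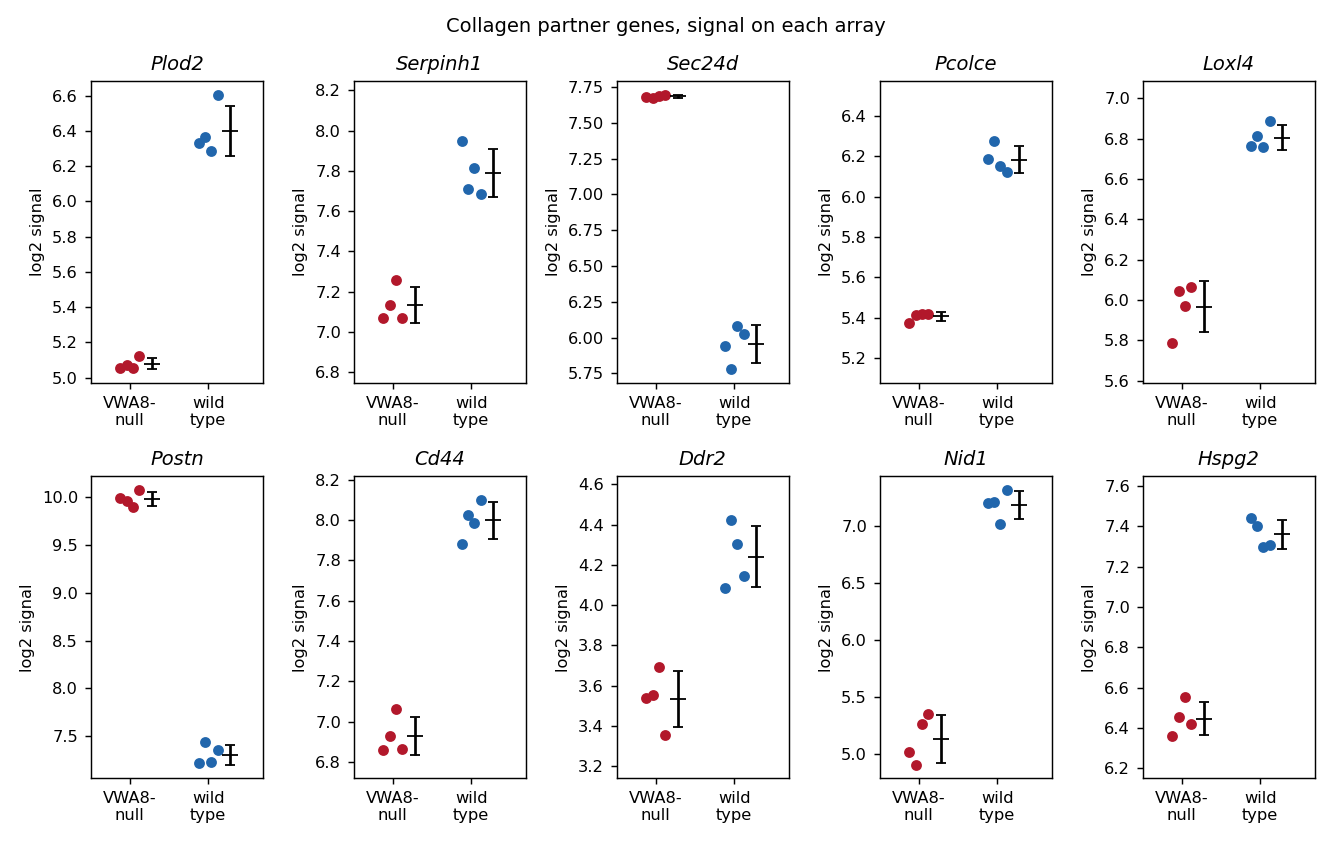
Log2 signal on each array for 10 genes that act with collagens; points are arrays, and bars give mean and SD of 4. VWA8-null arrays lie above all wild-type arrays for Sec24d and Postn and below them for the other 8 genes, and each vertical axis has its own range.

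TGF-beta is the main inducer of collagen genes in fibroblasts and stellate cells. Of 15 measured ligands, receptors and targets of this pathway 8 were lower and 0 higher (median -0.37), beside 10.4% lower of all genes. All 8 were among the 14 above the median gene, where 18.3% of genes were lower. At an unadjusted p under 0.05, 10 were lower and 2 higher, beside 3505 lower and 3397 higher of all 22180 genes. Tgfb3 and Tgfb1, both ligands, changed by -1.19 ± 0.062 and -0.65 ± 0.064. The receptor genes Tgfbr1 and Tgfbr3 changed by -0.74 ± 0.061 and -0.98 ± 0.096 (adjusted p from 4.16e-06 to 0.000133 over these 4 genes). Of the targets, Smad7 was lower, at -0.38 (limma adjusted p = 0.00791), while Skil at 0.20 (0.0606) and Ccn2 at 0.11 (0.255) did not pass. The receptor gene Tgfbr2 did not pass either, at 0.18 (limma adjusted p = 0.147). Smad7, Skil, Ccn2 and Tgfbr2 were named after their values were seen.

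Markers of mesenchymal cells were given beside these results because such cells make much of the collagen in liver. Of 10 stellate cell and fibroblast markers 1 was lower, Vim, at -0.51 ± 0.057 (adjusted p = 0.0003), and 8 were dim in the data, among them Pdgfrb, Pdgfra, Des, Lrat and Thy1. This share was near the 10.4% of all genes that were lower. The mean log2 signal of the list ran from 4.56 to 4.709 over VWA8-null arrays and from 4.71 to 4.799 over wild-type arrays. Hepatocyte markers ran from 10.65 to 10.71 in the knockout and from 9.95 to 10.01 in the wild type. Of them 8 of 10 were higher and 2, the keratins Krt8 and Krt18, were lower. Krt18 lost its call with the mean of its probe sets, at -0.52 (limma adjusted p = 0.0767). All 10 hepatocyte markers were above the median gene, where 18.6% of genes were higher and 18.3% lower. Their part in the collagen results was not tested, and in such bulk RNA fewer cells of a type and less RNA per cell cannot be told apart.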

How the data were processed

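Total RNA of 4 VWA8-null and 4 wild-type cultures was labelled with biotin and hybridised to Affymetrix mouse arrays, per the labels' protocols. The deposited table has a value for each probe set on each array. These deposited values are taken as log2 signals, from their range of 0.437 to 13.55; how they were background-corrected, normalized and summarised by the authors is not stated in the labels or headers. Array medians lay between 4.27 and 4.33, and no normalization was added. Of 41345 probe sets, 23521 carried 1 gene symbol in the platform's annotation, 1814 several and 16010 none listed. The brightest single-symbol probe set by mean over all 8 arrays stood for each of 22180 genes, of which 21994 matched the gene table of GRCm38.p6 that gave chromosomes. RefSeq promoter windows of the same build were matched by gene ID.

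Genotypes were compared with lmFit and eBayes in limma 3.58.1 under R 4.3.3 with a single genotype term, two-sided, with Benjamini-Hochberg adjustment over all genes and a threshold of 0.05. The model was tested on simulated data with 200 changed genes. The design text speaks of separate cultures; p-values measure the spread between these, and 4 arrays per group limit the precision. Members and gene lists were chosen with earlier results of these data known; lists are described by counts and medians, with no test of a list. Named genes are Vwa8, every collagen past the threshold, the 3 brightest of each class, from each list at most 4 genes past the threshold, taken by adjusted p, and Serpinh1, P4ha1, Plod2, Lox, Col1a1, Col1a2, Col3a1, Col4a1 and Col4a2; other names were chosen after their values were seen. Alternatives were quantile normalization, the replicate number as a block, an intensity trend with robust variances, median centring, averaging all probe sets of a gene, leaving out the dimmest 50% of them, type IV alone as the basement membrane class, subtracting a gene's local shift (the median change of 30 brighter non-collagen genes to either side on its chromosome), and leaving out each array. Brighter neighbours are genes with a mean signal above the median gene. Their median was subtracted as a fixed value, so p-values after the subtraction leave out the spread among neighbours. Python 3.11.15 and matplotlib 3.10.9 drew the figures.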

Additional observations from a re-analysis of the deposited data

Results flagged for a closer look

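In 16 of 208 groups of 4 arrays, from 104 genes, the gap between an extreme array and its nearest neighbour took up more of the group's range than Dixon's 95% critical value for 4 samples allows; chance alone gives about 1 in 20. Of 88 groups of collagen values 7 were among them. The share was 0.986 for Col4a1, low in knockout replicate 3 (7.05 beside 7.13), within a very narrow range. It was 0.976 for Col19a1, high in knockout replicate 1, and 0.858 for Col10a1, low in knockout replicate 2. In wild-type cells it was 0.932 for Col5a1 and 0.834 for Col11a2, both low in replicate 4, 0.873 for Col5a2, high in replicate 2, and 0.914 for Col9a1, low in replicate 2.

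Among genes of the other lists the share in knockout cells was 0.963 for Fkbp14 and 0.945 for Mia2, both high in replicate 4, 0.853 for Pcolce and 0.88 for Tgfb1, both low in replicate 1, and 0.845 for Timp2, high in replicate 3. In wild-type cells it was 0.882 for Sec23a, low in replicate 2, 0.893 for Mep1a and 0.923 for Vim, both low in replicate 4, and 0.85 for Smad3, high in replicate 1. The genotypes did not overlap for Col4a1 or for any of these 9 genes of the other lists. Genes of the other lists were checked only if past the threshold, which largely fixed their separation in advance.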

How the results depend on the processing

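Col4a1, Col4a2, Col12a1 and Col15a1 kept their direction and passed under all 15 alternatives tried, at -0.71 to -0.51, -0.71 to -0.49, -0.74 to -0.69 and -0.63 to -0.50. Of the 42 passing genes that were followed through the alternatives, 0 changed sign. P4hb, Ppib, Plod1, Fkbp14, Fkbp7, Mia3, Sec23a, Creb3l1, Smad3 and Smad7 also passed but were not followed in this way. Of the 11 followed genes that did not pass, 7 changed sign, among them Col18a1 (-0.13 to 0.06), Col3a1 (-0.36 to 0.11), P4ha1 (-0.09 to 0.13) and Lox (-0.10 to 0.04). The fibrillar median ran from -0.09 to 0.04. With the replicate number as a block, which pairs no samples here (deviations of same-numbered arrays correlated at -0.00152 to 0.0589), the lowered collagens numbered 4 and those of the other class 1, degradation genes 2, and the rises fell to 1 for basement membrane partners and 0 for processing genes. Among the followed genes the block ended the calls of Col4a6 (adjusted p = 0.0749), Col6a1 (0.0586), Col7a1 (0.0532), P4ha2 (0.103), Mep1a (0.0733), Ctsl (0.0558), Mmp14 (0.0845) and Lamc1 (0.0531). After subtracting the neighbours' change, 1 collagen rose (Col6a2, of the other class, so 1 there), 1 fibrillar collagen fell (Col5a2), and 1 gene each rose among receptors, degradation and TGF-beta genes. With an intensity trend or without the dimmest 50% of probe sets, 1 degradation gene and 1 TGF-beta gene rose, and in the second case 0 processing genes did. Leaving out each array gave 4 to 7 lowered and 0 to 1 risen collagens, 0 to 1 risen fibrillar collagens and 1 to 3 lowered other collagens. It gave 2 to 4 lowered modifying genes and 0 to 1 risen processing genes. Over all genes it gave 1885 to 2017 lower and 1929 to 2028 higher, beside 2312 and 2314 with all arrays. The basement membrane median was -0.57 without dim probe sets, where 5 genes remained. The causes of these shifts were not tested, other than that fewer genes or arrays entered where some were left out. Fewer genes passed at or below the median gene than above it, and no separate measure of background was used.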

Other observations

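Collagens lie in several clusters, and the genes around them did not all sit at 0. Around Col3a1 and Col5a2 on chromosome 1 the median log2 fold change of the brighter neighbours, knockout minus wild type, was 0.37, around Col9a1 and Col19a1 0.35, and around Col4a3 and Col4a4 0.28. Around Col6a1, Col6a2 and Col18a1 on chromosome 10 it was -0.17, around Col4a1 and Col4a2 on chromosome 8 -0.19, and around Col12a1 and Col7a1 on chromosome 9 0.003 and -0.002. Relative to their neighbours, Col5a2 (-0.48, adjusted p = 0.00494), Col19a1 (-0.47, 0.00558), Col4a4 (-0.43, 0.0418) and Col4a3 (-0.32, 0.0488) were lower and Col6a2 (0.34, 0.0495) was higher in limma. None passed without the subtraction, where they stood at -0.11, -0.12, -0.15, -0.04 and 0.17, in the same order. The median was subtracted as a fixed value, so these p-values leave out the spread among the neighbours. Whether a dim gene shares the shift of its brighter neighbours was not tested. These 5 genes were named after their values were seen.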
